A study of Homo sapiens with 24 samples.

Results

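PPC1 is a human prostate cancer cell line, and 27 of its genes for sterol synthesis, sterol sensing and lipoprotein uptake are described here in polyploid giant cancer cells (PGCC) and in the parental cells from which they were made. The genes were chosen by name, as protein-coding rows of a count table of 48162 genes, and all 27 were found. They comprise 19 enzymes of the route from acetyl-CoA to cholesterol, 7 genes of the sterol sensing machinery and 1 regulator of lipoprotein uptake. RNA-seq was made in 4 conditions with 6 libraries each: parental cells (UT), parental cells with LCL521 (UT_LCL), PGCC (PGCC) and PGCC with LCL521 (PGCC_LCL). All cells grew in RPMI medium and were harvested on day 5. PGCC had received 8 Gy of radiation on day 2 and were the cells held back by a 20 micron filter, whereas parental cells were neither irradiated nor filtered, so radiation, cell size and filtration cannot be told apart. LCL521, a pro-drug that inhibits the lysosomal enzyme acid ceramidase (ASAH1), was given at 5 μM for 5 h before harvest. The experiment was done 6 independent times with all 4 conditions harvested in parallel, and the replicate numbers 1 to 6 of the labels are taken as those times.

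Cells make cholesterol from acetyl-CoA in a chain of reactions that passes through mevalonate, isopentenyl units, squalene and lanosterol. The chain is governed by the SREBP transcription factors, which are made as precursors in the membrane of the endoplasmic reticulum and travel with their escort SCAP to the Golgi when membrane sterol is low. There the proteases MBTPS1 and MBTPS2 release the active factor, which turns on most genes of the chain together with INSIG1, the protein that holds SCAP back when sterol is plentiful. Dividing and growing cells draw on this route for new membrane.

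Each library held from 14835246 to 19906601 reads counted on genes. Levels are given as CPM, the count scaled by library size after TMM normalization, and the floor of 3 counts, which covers counting error only, corresponds to 0.151 to 0.202 CPM. Without drug the epithelial markers KRT8, KRT18, KRT19, EPCAM and CDH1 summed to between 782 and 1033 CPM in parental cells. In PGCC their sum lay between 967 and 1480 CPM. KRT19 is part of this sum and is not given singly here. KRT8 lay between 56.4 and 87.2 CPM in parental cells and between 144 and 222 CPM in PGCC. KRT18 lay between 184 and 268 CPM in parental cells and between 150.3 and 196 CPM in PGCC. EPCAM did not exceed 0.852 CPM in any library and CDH1 did not exceed 6.497 CPM. The prostate luminal genes KLK2 and KLK3 were listed at 0 in all 24 libraries and TMPRSS2 did not exceed 0.126 CPM. Of the basal pair, KRT14 lay between 2.77 and 8.47 CPM in PGCC and at most at 0.138 CPM in parental cells, and KRT5 at most at 0.424 CPM in either. The summed leukocyte markers (PTPRC, CD3E, CD14) lay between 2.84 and 4.43 CPM in PGCC and between 0.464 and 2.97 CPM in parental cells, and the summed fibroblast markers (DCN, LUM, COL1A1, COL1A2) between 79.5 and 206 CPM against 49.8 and 133 CPM. CD3E was at 0 in every PGCC and parental library without LCL521, and DCN and LUM did not exceed 0.555 CPM there, so the sum was almost all COL1A1 and COL1A2. VWF, the endothelial marker in the table, lay between 0.242 and 0.668 CPM in PGCC and between 0 and 1.11 CPM in parental cells. The part of these markers in the results was not tested. In bulk RNA, fewer cells of a type and less RNA per cell cannot be told apart, and a level is a share of all RNA, so the RNA content of a giant cell is not measured.

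Libraries of replicates 4 and 5 stood apart from those of the other 4 replicates for many of these genes. In parental cells both libraries lay below the other 4 for 7 of the 19 enzymes and above them for 2. SQLE, for example, was at 71.2 and 82.0 CPM there and between 104 and 153 CPM in the others. SREBF1, SREBF2, MBTPS1 and MBTPS2 lay above the others instead, SREBF1 with 358 and 386 CPM against 217 to 239 CPM. In PGCC both libraries lay above the other 4 for 6 enzymes and below for 2. The share of all genes that split in this way was not counted. Across all genes tested, replicate 4 of drug-treated parental cells deviated together with replicate 5 of parental cells (correlation 0.628). With parental replicates 1, 2, 3 and 6 its correlations lay between -0.578 and -0.380, so the split is not particular to these genes. Counts of members called are therefore also given without them. For single genes with LCL521, the values are those of all libraries, and which calls were kept without replicates 4 and 5 is not given gene by gene.

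The starts of these genes are shown because many of the members moved together and because the sequence before a start can be read for the boxes through which sterol genes are known to be controlled. RefSeq promoters (GRCh38.p14, 250 bases before to 50 after a start) were matched by symbol for 24 of the 27 members, in 32 windows since some genes have several starts; ACAT2, FDFT1 and SQLE were not among them. The CCAAT box, bound by NF-Y, a factor known to work beside SREBP, was searched as CCAAT on both strands of the 250 bases before each start. The 50 bases after a start were not searched for any box. The CCAAT box was found in 17 of the 24 members and in 19 of the 32 windows, against 32.0% of all 35116 windows searched in the same way. At least 2 boxes stood in 10 of the 24 members and in 11 of the 32 windows, against 9.53% of all windows. A few members carry the contrast, and the 250 bases before their starts are given 5′ to 3′, with capitals marking CCAAT or, on the other strand, ATTGG. MVK (chr12:109573544-109573793, plus strand) holds 5 boxes, MSMO1 (chr4:165327419-165327668, plus strand) 4, MVD (chr16:88663092-88663341, minus strand) 3 and INSIG1 (chr7:155297628-155297877, plus strand) 1, and SCAP (chr3:47475942-47476191, minus strand) holds none.
MVK: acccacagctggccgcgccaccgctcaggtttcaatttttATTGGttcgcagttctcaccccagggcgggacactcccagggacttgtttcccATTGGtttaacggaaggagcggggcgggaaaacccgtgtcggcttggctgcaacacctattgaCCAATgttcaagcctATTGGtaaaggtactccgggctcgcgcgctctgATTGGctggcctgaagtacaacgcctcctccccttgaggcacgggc
MSMO1: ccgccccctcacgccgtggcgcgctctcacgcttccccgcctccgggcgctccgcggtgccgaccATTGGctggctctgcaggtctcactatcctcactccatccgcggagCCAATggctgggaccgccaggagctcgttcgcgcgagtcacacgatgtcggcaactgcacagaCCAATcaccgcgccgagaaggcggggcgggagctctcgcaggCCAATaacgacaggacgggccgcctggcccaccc
MVD: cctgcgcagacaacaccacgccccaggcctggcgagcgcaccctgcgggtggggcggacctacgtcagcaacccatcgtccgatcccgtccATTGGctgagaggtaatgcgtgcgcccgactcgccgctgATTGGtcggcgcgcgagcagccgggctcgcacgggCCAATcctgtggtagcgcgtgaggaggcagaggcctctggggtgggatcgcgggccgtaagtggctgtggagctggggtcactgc
INSIG1: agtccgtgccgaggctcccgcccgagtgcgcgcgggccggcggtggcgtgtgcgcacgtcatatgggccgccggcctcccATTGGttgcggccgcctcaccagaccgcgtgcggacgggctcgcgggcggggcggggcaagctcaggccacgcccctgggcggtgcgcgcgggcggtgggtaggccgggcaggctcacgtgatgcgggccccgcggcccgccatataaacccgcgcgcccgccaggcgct
SCAP: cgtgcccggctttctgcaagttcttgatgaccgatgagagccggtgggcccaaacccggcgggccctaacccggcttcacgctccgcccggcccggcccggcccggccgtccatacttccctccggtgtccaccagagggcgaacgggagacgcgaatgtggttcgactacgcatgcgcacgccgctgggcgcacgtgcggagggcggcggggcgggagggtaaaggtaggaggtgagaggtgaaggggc

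The core of the sterol regulatory element, searched as TCACNCCAC on both strands, was found in SREBF2 and in no other matched member, against 0.883% of all windows. The GC box (GGGCGG), bound by Sp1, was found in 21 of the 24 members against 42.6% of all windows, and the E-box CACGTG in 3 against 6.34%. Matches that overlap were each counted. A member counts as holding a box when any of its windows does, whereas the percentages are per window. Members with several windows thus had more chances to hold one. A match is a run of letters and not a shown binding site. The absence of one says only that these letters are not in the 250 bases searched.

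The first question was how the sterol route of PGCC differs from that of parental cells without drug. In PGCC, 11 of the 19 enzymes rose and none fell, with a median log2 fold change of 0.58 over the 19, where the median of all genes tested was -0.03. Of the 8 sensing and uptake genes, INSIG1 rose, SCAP, MBTPS1 and MBTPS2 fell, and 4 did not pass the test. Calls are edgeR quasi-likelihood tests with Benjamini-Hochberg adjusted p under 0.05 over the 13812 genes tested, of which 23.1% were higher in PGCC and 24.3% lower, so 12 of 27 members called higher stand beside 23.1% and 3 of 27 called lower beside 24.3%. With the replicate number as a block, 13 members were higher and 5 lower, where 56.2% of all genes passed in either direction. Without replicates 4 and 5, 10 enzymes and INSIG1 rose, and SCAP, MBTPS2 and SREBF1 fell, with a median of 0.37 over the enzymes. Of the 13809 genes tested in that fit, 3829 rose and 3714 fell. The log2 fold changes of called members that moved by over 1.5 times were those of MVK (0.80 with all libraries and 0.52 without replicates 4 and 5), EBP (0.58 and 0.37), LSS (0.45 and 0.25) and MBTPS2 (-0.63 and -0.38). With counts scaled by library totals alone, 13 members were higher and 2 lower, beside 3820 and 2521 of all genes (3186 and 3355 with TMM). Within the 6 replicates, the median difference of the 19 enzymes between PGCC and parental cells ran from 0.277 to 0.919 on the log2 scale, and that of all genes from -0.00782 to 0.0252.

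**Figure D1:**
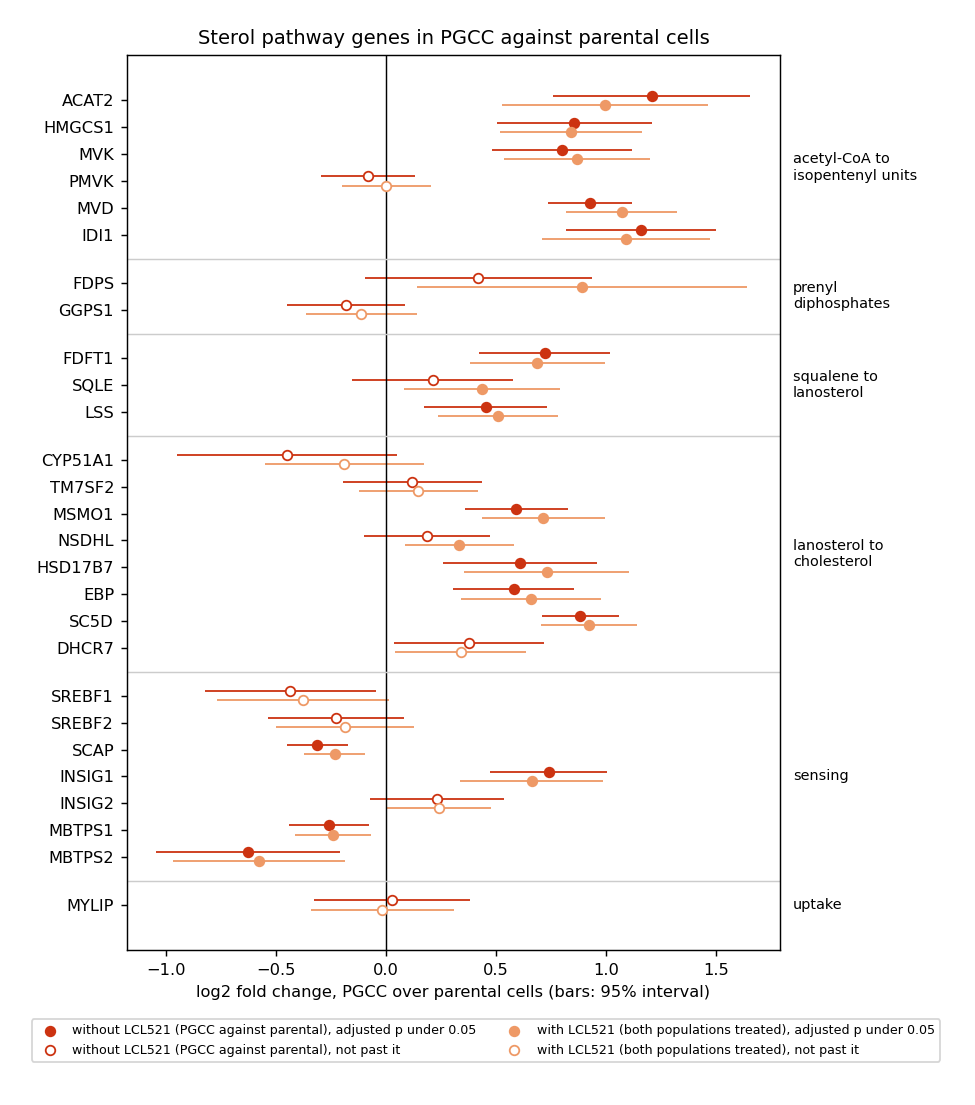
Log2 fold changes of the 27 members between PGCC and parental cells, without LCL521 (dark) and with LCL521 in both populations (light), by pathway step; points are estimates from 6 against 6 libraries, bars are 95% intervals, and filled points have an adjusted p under 0.05. The enzymes of the first step other than PMVK lie between 0.80 and 1.21 without drug, and SCAP, MBTPS1 and MBTPS2 lie left of 0 in both comparisons.

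In the first stretch, from acetyl-CoA to isopentenyl units, 5 of 6 enzymes rose and PMVK did not. ACAT2, the thiolase that joins acetyl-CoA units in the cytosol, had 6.33, 12.3 and 20.2 CPM in parental cells (lowest, median and highest of 6 libraries, as in all such triplets here) and 24.7, 30.7 and 35.2 CPM in PGCC. The 2 groups did not overlap, and ACAT2 rose 2.31-fold (95% interval 1.69 to 3.15), with an adjusted p of 3.2e-04. Its gene overlaps TCP1 and SOD2 on the opposite strand, both far more highly counted, and the sources do not say if counting used the strand, so its level is uncertain. HMGCS1, which adds the next acetyl unit, had 61.5, 74.7 and 108 CPM in parental cells and 100.3, 149.7 and 174 CPM in PGCC. The highest parental library lay above the lowest PGCC library, and HMGCS1 rose 1.81-fold (95% interval 1.42 to 2.31), with an adjusted p of 7.3e-04. MVK, the kinase of mevalonate, had 12.9, 16.1 and 22.5 CPM in parental cells and 22.1, 28.1 and 35.8 CPM in PGCC. These groups overlapped by less than 1 CPM and MVK rose 1.74-fold (95% interval 1.397 to 2.17), with an adjusted p of 5.6e-04. MVK shares 620 bases with MMAB on the opposite strand.

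MVD, the decarboxylase that yields isopentenyl diphosphate (ENSG00000167508, chromosome 16, bases 88718343 to 88729569 of hg19), had 47.1, 55.2 and 59.9 CPM in parental cells and 90.9, 104 and 119 CPM in PGCC. The groups lay far apart, and MVD rose 1.901-fold (95% interval 1.66 to 2.17), with an adjusted p of 2.1e-06. IDI1, the isomerase that makes the second isopentenyl unit, had 14.9, 22.5 and 31.7 CPM in parental cells and 44.1, 49.2 and 55.1 CPM in PGCC. Its groups did not overlap, and IDI1 rose 2.23-fold (95% interval 1.76 to 2.83), with an adjusted p of 4.6e-05. PMVK, the kinase between MVK and MVD, had a log2 fold change of -0.08 ± 0.10 (SE, n = 6 against 6, adjusted p = 0.52 in edgeR), with a 95% interval of -0.30 to 0.13, and was higher in PGCC in 3 of 6 pairs.

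The enzymes of prenyl diphosphates did not pass the test. FDPS, which builds farnesyl diphosphate, had 3.497, 5.74 and 9.21 CPM in parental cells and 5.06, 7.41 and 11.4 CPM in PGCC. The ranges overlapped widely. FDPS was higher in PGCC in 6 of 6 pairs, with a log2 fold change of 0.42 ± 0.24 (SE) and an adjusted p of 0.17 in edgeR, or 0.038 with the replicate block. Only 3169 counts fell on FDPS over the 24 libraries, and it has 7 listed pseudogenes and an antisense partner, RUSC1-AS1, over 3804 bases, so its level is uncertain. GGPS1, which makes the longer geranylgeranyl diphosphate used to anchor proteins in membranes, had a log2 fold change of -0.18 ± 0.13 (SE, edgeR adjusted p = 0.25).

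Between farnesyl diphosphate and lanosterol, FDFT1 and LSS rose and SQLE did not pass. FDFT1, squalene synthase and the first enzyme committed to sterols, had 95.7, 124 and 139.5 CPM in parental cells and 142, 196 and 255 CPM in PGCC. All PGCC libraries lay above all parental libraries, and FDFT1 rose 1.65-fold (95% interval 1.34 to 2.03), with an adjusted p of 7.2e-04. SQLE, the epoxidase of squalene and a known control point of the route, had 71.2, 120.3 and 153 CPM in parental cells and 109.7, 136 and 155 CPM in PGCC. The PGCC range lay almost wholly inside the parental one, with a log2 fold change of 0.21 ± 0.17 (SE, edgeR adjusted p = 0.33). LSS, which folds the epoxide into lanosterol, had 48.2, 67.3 and 84.5 CPM in parental cells and 80.2, 91.5 and 101 CPM in PGCC. Its groups overlapped, and LSS rose 1.37-fold (95% interval 1.13 to 1.66) with an adjusted p of 0.011, which was 0.055 without replicates 4 and 5.

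On the way from lanosterol to cholesterol, 4 of 8 enzymes rose. MSMO1, the oxidase that starts the removal of the methyl groups at carbon 4, had 28.4, 31.5 and 37.1 CPM in parental cells and 37.7, 48.5 and 57.3 CPM in PGCC. The groups were separate by under 1 CPM, and MSMO1 rose 1.51-fold (95% interval 1.28 to 1.77), with an adjusted p of 5.4e-04. HSD17B7, the reductase that ends this removal, had 8.66, 13.9 and 15.8 CPM in parental cells and 14.6, 19.6 and 25.9 CPM in PGCC. Its ranges overlapped, it was higher in 6 of 6 pairs, and it rose 1.52-fold (95% interval 1.196 to 1.94), with an adjusted p of 0.0072. EBP, the isomerase that moves a double bond in the ring, had 22.6, 36.7 and 42.6 CPM in parental cells and 46.96, 51.1 and 56.4 CPM in PGCC. All PGCC libraries lay above all parental libraries, and EBP rose 1.49-fold (95% interval 1.23 to 1.81), with an adjusted p of 0.0021. SC5D, the desaturase that follows it (ENSG00000109929, chromosome 11, bases 121163162 to 121179403 of hg19), had 44.1, 47.6 and 53.9 CPM in parental cells and 77.5, 86.9 and 99.2 CPM in PGCC. This was the smallest p of the 27 members: SC5D rose 1.85-fold (95% interval 1.64 to 2.08), with an adjusted p of 1.3e-06 and no overlap of the groups.

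The other 4 enzymes of this stretch did not pass. DHCR7, which performs the last reduction to cholesterol in one branch, had 82.7, 138 and 168 CPM in parental cells and 132, 172 and 189 CPM in PGCC, with an adjusted p of 0.067 in edgeR. The groups overlapped, and the difference was positive in 4 of 6 pairs. The adjusted p was 0.047 with limma-voom and 0.029 with counts scaled by library totals alone. CYP51A1, the demethylase of lanosterol, was lower in PGCC in 6 of 6 pairs (log2 fold change -0.45 ± 0.23, SE), with an adjusted p of 0.13 in edgeR or 0.041 with the replicate block. It held only 2044 counts over the 24 libraries and lies on the same strand as LRRD1 over 30794 bases, so reads of the 2 genes may not have been told apart. TM7SF2, a sterol reductase, and NSDHL, the dehydrogenase between MSMO1 and HSD17B7, had log2 fold changes of 0.12 ± 0.15 and 0.19 ± 0.13 (SE), with edgeR adjusted p-values of 0.53 and 0.27.

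**Figure D2:**
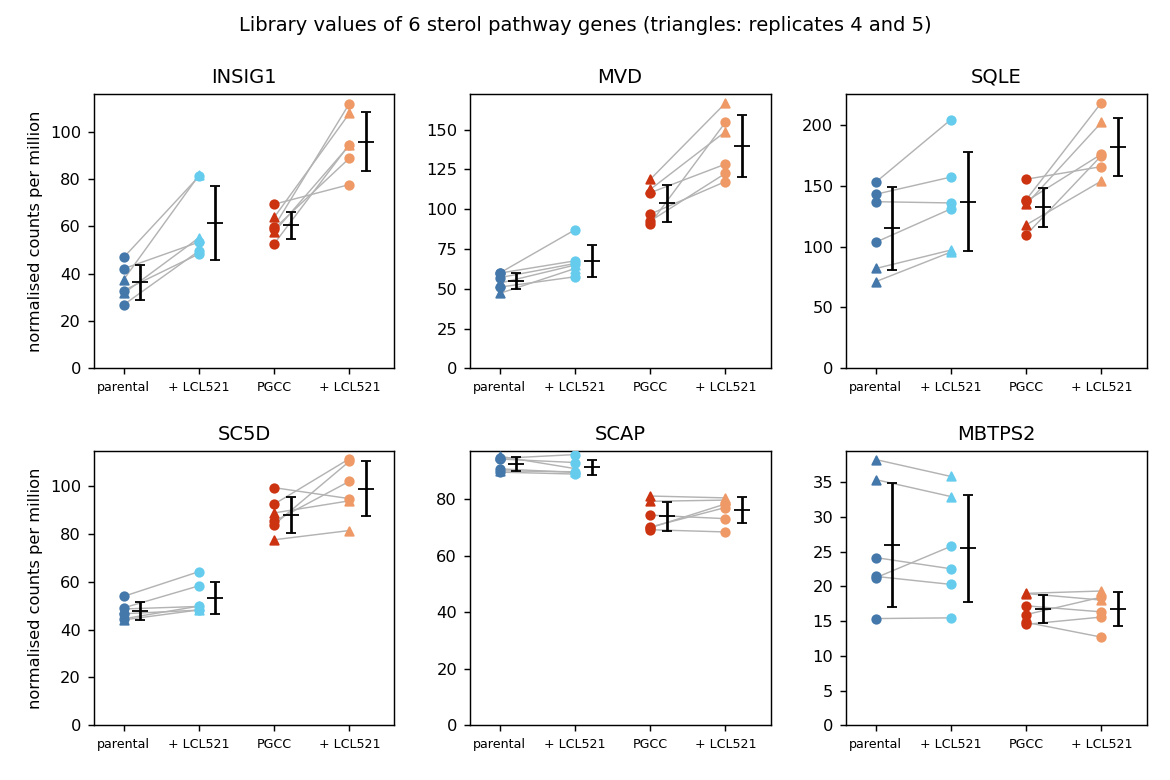
CPM of 6 members in each of the 24 libraries, by condition; grey lines join libraries of the same replicate number, bars are the mean ± SD of 6 libraries, and triangles are replicates 4 and 5. INSIG1, MVD and SC5D are higher in PGCC than in parental cells without overlap, SCAP is lower without overlap, SQLE overlaps, and the 2 parental triangles of MBTPS2 stand above all other libraries of the panel without LCL521.

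The sensing genes divided. INSIG1, the sterol-dependent anchor of SCAP (ENSG00000186480, chromosome 7, bases 155089486 to 155101945 of hg19), had 26.9, 35.2 and 46.9 CPM in parental cells and 52.6, 59.4 and 69.4 CPM in PGCC. Every PGCC library lay above every parental library, and INSIG1 rose 1.67-fold (95% interval 1.39 to 2.01), with an adjusted p of 2.6e-04. Its relative INSIG2, which does the same task, had a log2 fold change of 0.23 ± 0.14 (SE, edgeR adjusted p = 0.19). SCAP, the escort of the SREBP precursors, had 89.7, 92.6 and 95.3 CPM in parental cells and 69.3, 72.3 and 81.2 CPM in PGCC. The groups did not overlap, and SCAP fell to 0.805 times the parental level (95% interval 0.73 to 0.89), with an adjusted p of 0.0012.

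Of the proteases, MBTPS2 (ENSG00000012174, chromosome X, bases 21857754 to 21903542 of hg19), which makes the second cut, had 15.4, 22.8 and 38.2 CPM in parental cells and 14.5, 16.6 and 18.99 CPM in PGCC. The ranges overlapped at their low ends, and MBTPS2 fell to 0.65 times the parental level (95% interval 0.48 to 0.86), with an adjusted p of 0.016. The YY2 gene lies within it on the same strand, with few counts. MBTPS1, which makes the first cut, was at 301, 352 and 394 CPM in parental cells and 241, 295 and 329 CPM in PGCC. It fell to 0.83 times the parental level (95% interval 0.74 to 0.95), with an adjusted p of 0.021. This call was lost without replicate 4 (0.058), without replicate 5 (0.068), without both (0.10) and when counts were scaled by library totals alone (0.10, all edgeR adjusted p-values).

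The transcription factors themselves were not called without the block. SREBF1, which encodes the SREBP that mainly serves fatty acid genes and in part sterol genes, was lower in PGCC in 6 of 6 pairs by 0.38 to 0.52 on the log2 scale. Its adjusted p was 0.061 in edgeR, 1.7e-04 with the replicate block and 6.6e-04 without replicates 4 and 5, and it shares 1055 bases with RAI1 on the opposite strand. SREBF2, which encodes the SREBP most devoted to sterol genes, had 107, 142 and 199 CPM in parental cells and 105, 137 and 152 CPM in PGCC. It was lower in 6 of 6 pairs, with a log2 fold change of -0.23 ± 0.14 (SE) and an edgeR adjusted p of 0.21, or 0.07 with the block. MYLIP, a ligase that sends lipoprotein receptors to the lysosome, had a log2 fold change of 0.03 ± 0.17 (SE, edgeR adjusted p = 0.91).

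The next question was whether the same genes differ between PGCC and parental cells when both had received LCL521. In that comparison, 14 of the 19 enzymes and INSIG1 rose, and SCAP, MBTPS1 and MBTPS2 fell, with a median log2 fold change of 0.69 over the enzymes. Of the 13818 genes tested, 25.0% were higher and 23.9% lower, beside 15 and 3 of the 27 members. With the replicate block 21 members were called, where 56.3% of all genes passed in either direction. Without replicates 4 and 5, 12 enzymes and INSIG1 rose and SCAP and SREBF1 fell, with a median of 0.47 over the enzymes. Of the 13891 genes tested in that fit, 3872 rose and 3418 fell. This comparison has no library in common with the first but comes from the same 6 experiments. The enzymes called here and not without drug were FDPS (1.85-fold (95% interval 1.101 to 3.12), adjusted p = 0.048 in edgeR), SQLE (1.35-fold (95% interval 1.06 to 1.73), adjusted p = 0.042) and NSDHL (1.26-fold (95% interval 1.06 to 1.495), adjusted p = 0.027). Each of these calls was lost under several other settings: that of FDPS when any one of replicates 2, 3, 4 and 5 was left out, that of SQLE for any one of replicates 1, 2, 4, 5 and 6, and that of NSDHL for any one of replicates 2, 4 and 6. With the block, DHCR7 (adjusted p = 0.039), INSIG2 (0.032) and SREBF1 (0.0016, lower) passed as well in edgeR. The call of MBTPS1 was lost without replicate 3 (0.052), 4 (0.061) or 5 (0.093), that of MBTPS2 without replicates 4 and 5 together (0.051) and that of SCAP under library totals alone (0.054).

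The values without and with drug stood close for most members. MVD was 1.901-fold higher in PGCC without drug and 2.102-fold (95% interval 1.77 to 2.502) higher with it, SC5D 1.85-fold and 1.897-fold (95% interval 1.63 to 2.21), and IDI1 2.23-fold and 2.13-fold (95% interval 1.63 to 2.77). HMGCS1 was 1.79-fold, MVK 1.82-fold, FDFT1 1.61-fold, MSMO1 1.64-fold, HSD17B7 1.66-fold, EBP 1.58-fold and LSS 1.42-fold higher with drug in both. ACAT2 was 1.996-fold (95% interval 1.44 to 2.76) and INSIG1 1.58-fold (95% interval 1.26 to 1.98) higher with drug in both, and here the ranges of both genes overlapped. SCAP stood at 0.85 times the parental level (95% interval 0.77 to 0.94) and MBTPS2 at 0.67 times the parental level (95% interval 0.51 to 0.88).

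The third question was what LCL521 did within each population. Without the replicate block the edgeR test called no member in parental cells, where 0% of the 13277 genes passed. There 4 members had an unadjusted p under 0.05, beside 71 of all 13277 genes. In PGCC the test called INSIG1, which is 0.00707% of the 14151 genes tested. An unadjusted p under 0.05 was found there for 12 members, beside 218 of all 14151 genes. The libraries of a replicate number deviate together, and with the number as a block 11 of 27 members rose in parental cells, where 0.520% of all genes rose, and 14 of 27 in PGCC, where 1.08% of all genes rose. No member fell in either population with the block. The 11 of parental cells were ACAT2, HMGCS1, MVK, MVD, IDI1, FDFT1, SQLE, LSS, MSMO1, DHCR7 and INSIG1. All 11, 100% of that list, were also among the 14 of PGCC, of which they are 78.6%. The other 3 of PGCC were FDPS, HSD17B7 and SREBF2.

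Over the 19 enzymes, the median log2 fold change with the block was 0.24 in parental cells and 0.24 in PGCC. Within replicates the median over the enzymes ran from 0.0931 to 0.316 in parental cells and from 0.107 to 0.405 in PGCC, where the medians of all genes ran from -0.0115 to 0.00126 and from -0.0185 to 0.0145. The parental count of calls moved with replicates 4 and 5: with the block it was 5 without replicate 4, 3 without replicate 5 and 1 without both. Calls over all genes, in either direction, went from 115 to 52, 26 and 3. The median log2 fold change of the 27 members was 0.15 with all libraries and 0.15 without both replicates, with 23 and 25 of 27 above 0. In PGCC 14 members rose without replicate 4, 12 without replicate 5 and 12 without both, beside 184, 136 and 129 calls over all genes and 234 with all libraries.

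**Figure D3:**
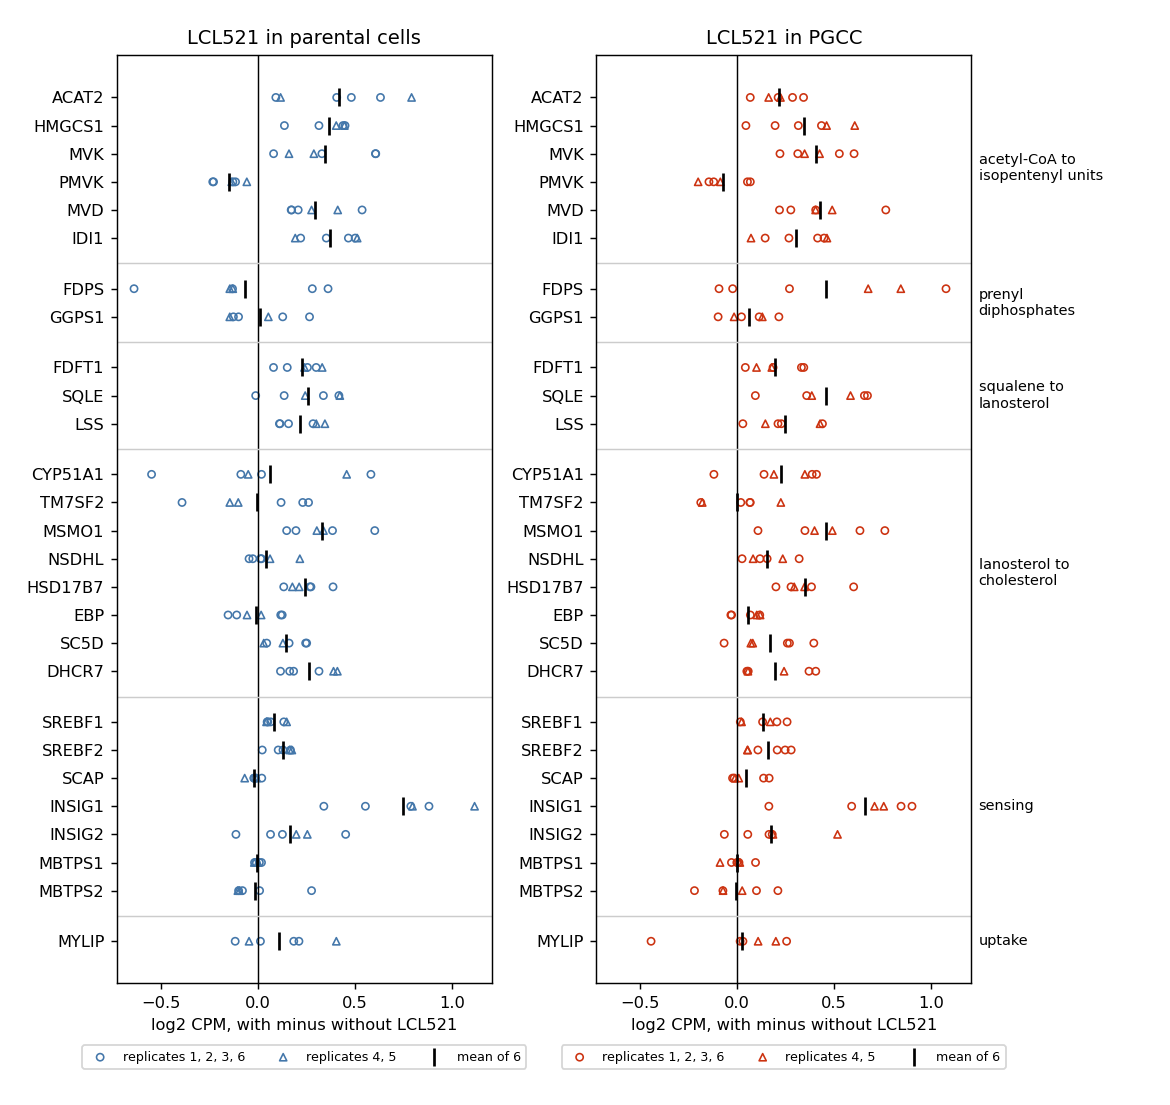
Difference of log2 CPM with minus without LCL521 for each replicate number and member, in parental cells (left) and PGCC (right); each open point is 1 pair of libraries, triangles are replicates 4 and 5, and the bar is the mean of 6 pairs. All 6 points of INSIG1 lie right of 0 in both panels, from 0.34 to 1.12 in parental cells and 0.16 to 0.90 in PGCC, whereas those of SCAP and MBTPS1 lie on both sides of 0.

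INSIG1 moved most. It was at 48.4, 54.3 and 81.6 CPM in parental cells with LCL521 and at 77.7, 94.4 and 112 CPM in PGCC with LCL521. In both populations the libraries with drug lay above all those without it, so that the 4 conditions stood in the order parental, then PGCC and drug-treated parental cells with overlapping ranges, then drug-treated PGCC, whose lowest library (77.7 CPM) lay below the highest of drug-treated parental cells (81.6 CPM). With the block INSIG1 rose 1.69-fold (95% interval 1.51 to 1.89) in parental cells (adjusted p = 6.5e-04 in edgeR) and 1.59-fold (95% interval 1.45 to 1.73) in PGCC (adjusted p = 1.8e-06). Without the block the adjusted p was 1.0 in parental cells and 0.04 in PGCC, and the PGCC call was lost when any one of replicates 1, 3, 4, 5 and 6 was left out. The two-sided exact permutation test gave 0.00216 over all divisions of the libraries in either population, the smallest that 6 against 6 can give. Over the 64 sign changes of the pairs it gave 0.0312, the smallest that 6 pairs can give. Both values follow from the separation of the groups. For the other members called with the block, the exact test over all divisions gave 0.00649 (MVD) to 0.331 (SQLE) in parental cells. In PGCC it gave 0.00216 (MSMO1) to 0.251 (FDFT1). Over the sign changes it gave 0.0312 for each of them but SQLE in parental cells (0.0625) and FDPS in PGCC (0.125).

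In the first stretch of the route, ACAT2 was at 11.05, 14.7 and 31.3 CPM in parental cells with LCL521 and 31.3, 35.8 and 39.8 CPM in PGCC with LCL521. It rose 1.35-fold and 1.16-fold with the block (adjusted p = 0.031 and 0.021). HMGCS1 was at 83.3, 97.2 and 147 CPM and 138, 181 and 220.1 CPM in the drug-treated populations. It rose 1.29-fold and 1.27-fold (adjusted p = 0.0047 and 2.7e-04). As for each enzyme called with drug but MSMO1 in PGCC, the ranges with and without drug overlapped, and all pairs were higher with drug but 1 for SQLE in parental cells and 2 for FDPS in PGCC. MVK was at 14.4, 22.3 and 28.4 CPM and 32.4, 36.5 and 48.1 CPM with drug. It rose 1.28-fold and 1.33-fold (adjusted p = 0.045 and 5.3e-05). MVD was at 57.5, 65.3 and 87.00 CPM and 117, 138 and 167 CPM with drug, and rose 1.24-fold and 1.35-fold (adjusted p = 0.011 and 1.9e-05). The promoter of MVD, shown above, holds 3 CCAAT boxes and that of MVK 5. IDI1 was at 18.2, 27.5 and 43.9 CPM and 49.4, 61.6 and 68.5 CPM with drug, and rose 1.31-fold and 1.24-fold (adjusted p = 0.0071 and 0.001). All 5 of these were higher with drug in 6 of 6 pairs of each population. PMVK, between MVK and MVD, was lower with drug in 6 of 6 parental pairs, with a log2 fold change of -0.14 ± 0.04 (SE, adjusted p = 0.15), and did not pass in PGCC either (-0.07 ± 0.04, adjusted p = 0.46).

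Of the next enzymes, FDFT1 was at 106, 152 and 169 CPM in parental cells with drug and 179, 217 and 289 CPM in PGCC with drug. It rose 1.18-fold and 1.15-fold (adjusted p = 0.0097 and 0.0049 in edgeR with the block, as for all values of this paragraph). SQLE was at 95.5, 133 and 204 CPM and 154, 175 and 218 CPM with drug. It rose 1.201-fold in parental cells, with 5 of 6 pairs higher, and 1.38-fold in PGCC, with 6 of 6 (adjusted p = 0.027 and 1.9e-05). So SQLE, which did not pass between PGCC and parental cells without drug, was among the larger rises with drug in PGCC. LSS was at 61.3, 73.99 and 103 CPM and 92.7, 107 and 127 CPM with drug, and rose 1.17-fold and 1.19-fold (adjusted p = 0.022 and 0.0037). FDPS was at 2.58, 5.21 and 11.2 CPM and 4.98, 11.7 and 14.8 CPM with drug. Its log2 fold change was -0.0005 in parental cells, and in PGCC it rose 1.41-fold (95% interval 1.19 to 1.68) with 4 of 6 pairs higher (adjusted p = 0.033), on the few counts given above.

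In the stretch from lanosterol to cholesterol, MSMO1 was at 32.5, 39.4 and 53.4 CPM in parental cells with drug and 58.5, 62.9 and 80.6 CPM in PGCC with drug. It rose 1.27-fold and 1.37-fold (adjusted p = 0.011 and 4.2e-05 in edgeR with the block). In PGCC the libraries of MSMO1 with drug lay above all those without it, as otherwise only those of INSIG1 did among the 27. The share of all genes separated in this way was not counted. HSD17B7 was at 9.51, 17.5 and 18.3 CPM and 19.1, 25.4 and 32.98 CPM with drug. It rose 1.28-fold in PGCC (adjusted p = 0.0013) and was higher in 6 of 6 parental pairs without passing (log2 fold change 0.25 ± 0.07, SE, adjusted p = 0.1). DHCR7 was at 109.9, 152 and 209 CPM and 169.6, 191 and 223 CPM with drug, and rose 1.21-fold and 1.15-fold (adjusted p = 0.0077 and 0.016). EBP and SC5D, which rose in PGCC, did not pass with drug in either population. EBP was at 22.9, 33.5 and 46.2 CPM and 46.01, 54.4 and 61.2 CPM with drug, with log2 fold changes of 0.00 ± 0.05 and 0.06 ± 0.04 (SE). SC5D was at 48.1, 49.7 and 64.2 CPM and 81.3, 98.3 and 111 CPM with drug, with log2 fold changes of 0.15 ± 0.05 and 0.17 ± 0.05 (SE, adjusted p = 0.17 and 0.065). CYP51A1, TM7SF2 and NSDHL did not pass in either population, with log2 fold changes in PGCC of 0.24 ± 0.12, 0.00 ± 0.08 and 0.16 ± 0.05 (SE).

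Among the sensing genes, SREBF2 was at 120.1, 153 and 225 CPM in parental cells with drug and 127, 151 and 162 CPM in PGCC with drug. It rose 1.12-fold in PGCC (adjusted p = 0.022 in edgeR with the block) and was higher in 6 of 6 parental pairs without passing (adjusted p = 0.094). SREBF1 was likewise higher in 6 of 6 pairs of both populations, by 0.04 to 0.15 and 0.02 to 0.26 on the log2 scale, without passing (adjusted p = 0.27 and 0.057). The escort and the proteases stood apart from this. With the block, log2 fold changes with drug were -0.01 ± 0.04 and 0.04 ± 0.04 (SE) for SCAP, 0.00 ± 0.03 and 0.00 ± 0.03 for MBTPS1 and -0.01 ± 0.06 and 0.00 ± 0.07 for MBTPS2, in parental cells and PGCC. MBTPS2 was at 15.5, 24.1 and 35.8 CPM and 12.7, 17.2 and 19.3 CPM with drug. INSIG2 and MYLIP did not pass, with log2 fold changes in PGCC of 0.17 ± 0.07 and 0.03 ± 0.11 (SE).

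Whether LCL521 acted differently in PGCC and parental cells was tested as an interaction over all 24 libraries. No member passed, with edgeR with or without the replicate block, with limma-voom or with DESeq2. Without a block the unadjusted p fell under 0.05 for 0 members, beside 60 of all 14555 genes, of which 0 passed after adjustment. A block of the replicate within each population gave 3 such members, beside 561 of all 14555 genes. They were FDPS (difference of log2 fold changes 0.49, 95% interval 0.09 to 0.89), SQLE (0.20, 0.02 to 0.38) and ACAT2 (-0.21, -0.41 to -0.01), each with an adjusted p of 1.0. For INSIG1 the difference was -0.09, with an interval of -0.32 to 0.14, and for MVD 0.13, with an interval of -0.04 to 0.29. These intervals bound the differences and do not show that the drug acted alike in both populations.

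**Figure D4:**
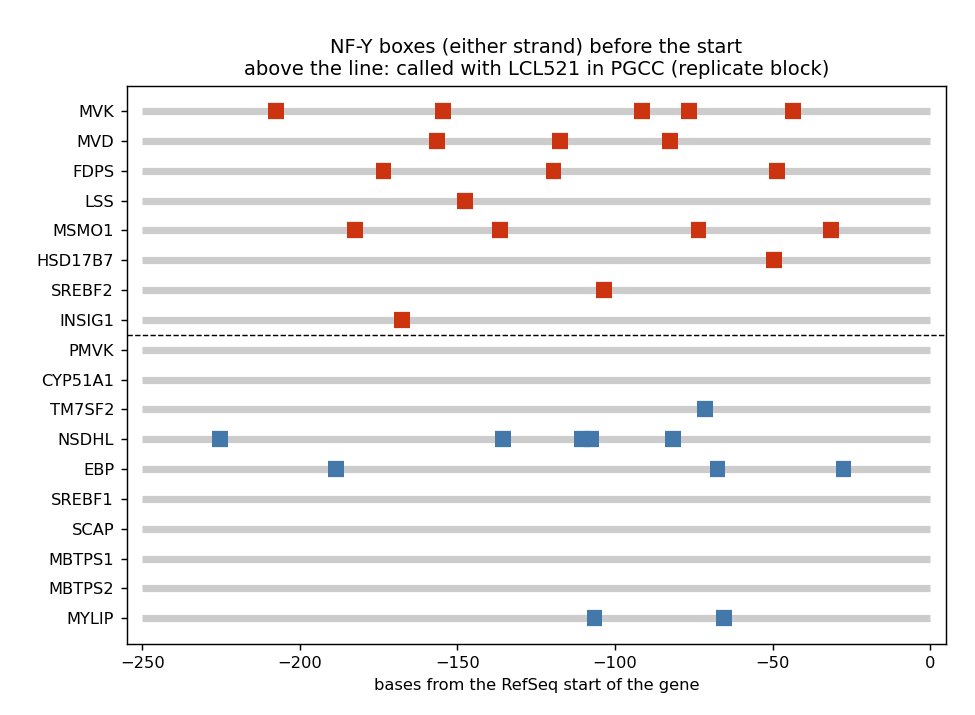
Places of CCAAT boxes, the motif of NF-Y, on either strand in the 250 bases before the RefSeq start, for the 18 members with 1 promoter window; the x axis counts bases from the start, red boxes belong to members that rose with LCL521 in PGCC under the replicate block (above the line) and blue boxes to the others. All 8 members above the line hold a box, as do 4 of the 10 below it. Most of the sensing and uptake genes shown lie below the line.

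Read beside the promoters, all 11 matched members that rose with LCL521 in PGCC held a CCAAT box in at least 1 of their windows, and 6 of the 13 others did, namely NSDHL, EBP, TM7SF2, GGPS1, SC5D and MYLIP. At least 2 boxes were held by 7 of the 11 and 3 of the 13. The box also went with gene class: 14 of the 16 matched enzymes held it and 3 of the 8 sensing and uptake genes. Most of those 8 are among the 13 others, so class and the rise with LCL521 are mixed in these counts. Within the matched enzymes, all that rose held a box, and so did all that did not rise but PMVK and CYP51A1. NSDHL holds 5 boxes, as many as MVK, and did not pass. The matched promoters of PMVK, CYP51A1, SREBF1, SCAP, INSIG2, MBTPS1 and MBTPS2 hold none in the bases searched. These counts are descriptions of letters in windows of a newer build than that of the count table, with no test.

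Levels can be set between genes only per gene length, in RPKM (CPM divided by gene length in kilobases, from the gene lengths of the table, mean ± SD of 6 libraries). In parental cells MBTPS1 stood highest with 80.8 ± 8.15 RPKM, ahead of SREBF1 with 59.5 ± 16.03, FDFT1 with 55.4 ± 8.24, PMVK with 52.3 ± 4.88 and DHCR7 with 48.9 ± 13.2. From MBTPS1 to DHCR7 neighbours in this order did not differ beyond their spread, and the lowest library of MBTPS1 lay at 69.5 RPKM and the highest of SREBF1 at 83.05 RPKM. The lowest were CYP51A1 with 1.72 ± 0.637 RPKM, MYLIP with 2.08 ± 0.409 and FDPS with 2.89 ± 1.02, which overlapped as well. In PGCC the order at the top was FDFT1 with 91.1 ± 19.5 RPKM, MBTPS1 with 67.2 ± 6.59 and DHCR7 with 63.2 ± 8.15, with overlapping spreads between neighbours. In PGCC with LCL521 FDFT1 stood at 104 ± 17.7 RPKM, DHCR7 at 72.2 ± 8.05, MBTPS1 at 67.04 ± 5.498 and SQLE at 61.4 ± 8.08. INSIG1 exceeded INSIG2 in all conditions, with 12.1 ± 2.44 against 4.04 ± 0.519 RPKM in parental cells and 31.8 ± 4.16 against 5.26 ± 0.515 RPKM in PGCC with LCL521.

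**Figure D5:**
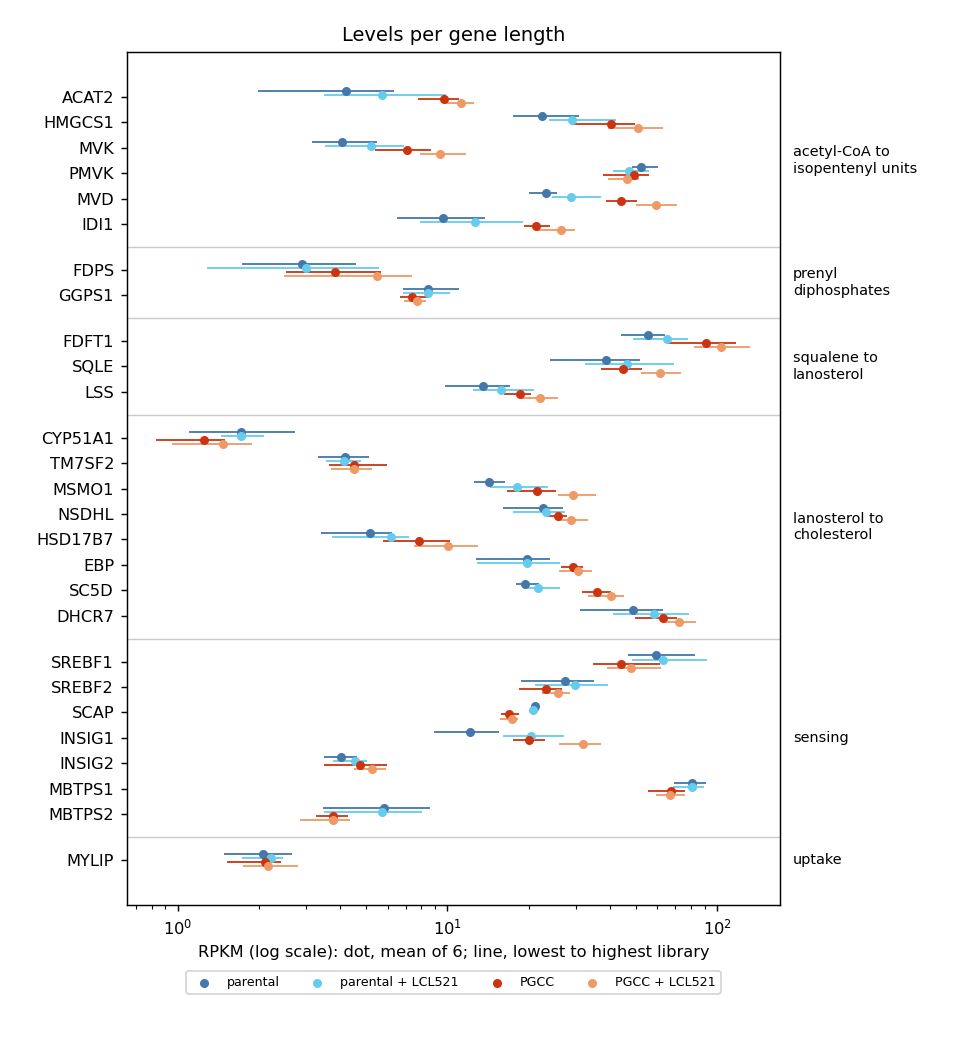
Level per gene length of the 27 members in the 4 conditions, as RPKM on a log axis; dots are means of 6 libraries and lines run from the lowest to the highest library. In parental cells the members span from 1.72 RPKM for CYP51A1 to 80.8 RPKM for MBTPS1.

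Around the 27 stands a wider list of 29 genes for branch enzymes of the route, sterol sensing and turnover in the endoplasmic reticulum, sterol handling and supply, and lipoprotein uptake. Between PGCC and parental cells without drug, 5 of the 29 rose and 10 fell, with a median log2 fold change of -0.02, beside 23.1% and 24.3% of all genes. With LCL521 in both, 7 rose and 8 fell. With the replicate block, LCL521 raised 1 of the 28 tested in parental cells and 3 of 29 in PGCC, and lowered none. STARD4, a carrier that moves cholesterol between membranes, was the one that rose in both. It had 7.198, 7.88 and 13.8 CPM in parental cells, 10.4, 11.8 and 21.9 with drug, 12.98, 16.3 and 19.9 in PGCC and 17.9, 20.9 and 27.03 in PGCC with drug. Its log2 fold changes with drug were 0.59 ± 0.08 in parental cells and 0.43 ± 0.08 in PGCC (SE, edgeR adjusted p with the block 0.0071 and 0.004), and 0.79 ± 0.18 between PGCC and parental cells (adjusted p = 0.0026). TMEM97, a membrane protein tied to sterol transport, and ACLY, which makes cytosolic acetyl-CoA from citrate, rose with drug in PGCC by 0.25 ± 0.05 and 0.14 ± 0.03 (log2, SE, adjusted p = 0.004 and 0.028) and did not pass in parental cells, with -0.01 ± 0.06 and 0.08 ± 0.03. No gene of this list passed the test of the interaction.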

How the data were processed

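RNA was isolated from PPC1 cells in 4 conditions, 6 libraries each. Per the supplementary methods and the submitters' processing notes, paired-end reads were aligned with STAR to hg19 and counted on genes with HTSeq. The authors deposited raw read counts per gene, not normalized, for 48162 genes. The annotation release and the use of strand are not given in the sources used here, so counts of overlapping and antisense genes and of copies are uncertain.

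The main tool was edgeR 4.0.16 in R 4.3.3, and DESeq2 1.42.0 and limma 3.58.1 served as alternatives. filterByExpr (minimum count 10, minimum total 15) took out low genes, all 27 members passed it, and libraries were scaled by TMM. Each comparison was fitted on its 12 libraries with the quasi-likelihood test, without a block since the study's methods name none, and p-values were adjusted over all genes tested by the Benjamini-Hochberg method (threshold 0.05). The interaction used all 24 libraries. SE is the size of the change over the square root of F, and log2 CPM carries a prior count of 2. Single members were also tested with exact permutation tests.

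Replicate numbers come from the labels, and all conditions were harvested together each time. Same-numbered libraries deviated together from their condition means: the lowest of their correlations across genes was 0.171 and the medians of the 4 comparisons lay between 0.272 and 0.652. Each comparison was therefore repeated with the number as a block. For libraries of different numbers the medians lay between -0.337 and -0.0799, but single correlations exceeded same-numbered ones. The highest was 0.628, for drug-treated parental replicate 4 with parental replicate 5. With drug, PGCC replicate 3 gave 0.307 with parental replicate 6 and 0.206 with parental replicate 3.

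Alternatives were DESeq2, limma-voom, RLE, upper quartile and total scaling, other filters, a gene length correction, 1 fit of all libraries, and leaving out replicates. Leaving out each replicate with the block was added after the data were seen. The procedure was tested on simulated counts. Promoter sequences are RefSeq's (GRCh38.p14). The members and lists were chosen with earlier results of these data known. Named with full values are members called with a change of over 1.5-fold or called with LCL521. Values of some further genes of the pathway are not reported here.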

Additional observations from a re-analysis of the deposited data

Results flagged for a closer look

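In 2 of the 108 groups of 6 libraries examined (27 members in 4 conditions), 1 library stood far from the others by Dixon's criterion at the 95% level, and chance flags about 1 in 20 groups. Both were replicate 3 of parental cells with LCL521. HMGCS1 was at 147 CPM there, and the next highest library of the group was at 98.7 CPM. MVD was at 87.0 CPM there, and the next highest was at 67.5 CPM. With the replicate block and without replicate 3, the number of members that rose with LCL521 in parental cells was 9 instead of 11. Calls over all genes, in either direction, were then 112 instead of 115.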

How the results depend on the processing

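The number of members called between PGCC and parental cells stayed within 1.5 times its value under every alternative run, at 14 to 20 without LCL521 and 14 to 21 with it in both. Calls over all genes ran from 5529 to 8881 and from 5734 to 8426. With library totals alone, 3820 of all genes were higher in PGCC and 2521 lower, against 3186 and 3355 with TMM scaling. The LCL521 counts depended on the pairing. In parental cells 0 members were called without the replicate block, 11 with it, 11 with DESeq2 and the block, 11 with the block and a gene length correction, and 1 with the block and without replicates 4 and 5, beside 0, 115, 158, 229 and 3 calls over all genes. The members' median log2 fold change stayed between 0.15 and 0.16 in the 4 fits with the block. Leaving out 1 replicate with the block gave 3 to 10, with 8 without replicate 6 and 9 without replicate 3. Over all genes it gave 26 to 112 calls. In PGCC 1 member was called without the block, 0 with limma-voom, 0 with all 24 libraries in one fit and 0 without replicates 4 and 5. With the replicate block there were 14, with DESeq2 and the block 12, with the block and the length correction 16, and with the block and without replicates 4 and 5 12, beside 234, 183, 256 and 129 over all genes. Leaving out 1 replicate gave 0 to 1 without the block and 11 to 15 with it, beside 0 to 1 and 136 to 339 over all genes. The cause of these differences was not tested. No member called in a comparison, or called under an alternative, changed direction under any of them, and the block changed no member's call other than those given. At 14835246 counts or more per library depth limits chiefly FDPS, CYP51A1, MYLIP and TM7SF2, at under 13 CPM in most libraries.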
